A study of Mus musculus with 6 samples.

Results

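The epithelial sodium and chloride transport genes described here are Scnn1a, Scnn1b, Scnn1g, Cftr, Atp1b1, Nedd4l, Slc12a2 and Ano1, the 8 rows with these symbols among the 18174 genes of the deposited lung table. All 8 passed the filter on low values and were tested. The study compared lung RNA of wild type male C57BL/6J mice, an inbred strain, kept at room temperature (3 libraries) or exposed to 4 °C for 6 h (3 libraries), in a project on TH-positive nerve fibres of the lung and their interaction with epithelium. Mice of both groups had free access to food and water, and their age was not among the labels. Nothing in the labels ties a library to a single mouse, although they are named biological replicates, so p-values measure only the spread between these libraries.

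Airway and alveolar epithelium sets the depth of the liquid that covers it by moving salt, which water follows. Sodium enters at the apical side through ENaC, the epithelial sodium channel, which is assembled from the alpha, beta and gamma subunits encoded by Scnn1a, Scnn1b and Scnn1g, and is pumped out at the basolateral side by the Na,K-ATPase, whose main beta subunit is encoded by Atp1b1. Chloride enters the cell through the sodium-potassium-chloride cotransporter NKCC1 (Slc12a2) and leaves at the apical side through the cyclic AMP-gated channel CFTR (Cftr) and the calcium-gated channel TMEM16A (Ano1). The ubiquitin ligase NEDD4-2 (Nedd4l) binds ENaC subunits and marks them for removal from the membrane. In the neonatal lung ENaC is known for clearing fluid from the airspaces.

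Positions are on GRCm38 (build mm10) from GENCODE M21, and each of the 8 genes is protein-coding. Scnn1a (ENSMUSG00000030340) spans chr6:125320659-125344943 on the plus strand. Scnn1g (ENSMUSG00000000216) at chr7:121734479-121768475 and Scnn1b (ENSMUSG00000030873) at chr7:121865038-121918514 are neighbours on the plus strand, 96.6 kb apart with 0 protein-coding genes between them. Cftr (ENSMUSG00000041301) spans chr6:18170687-18322768, Ano1 (ENSMUSG00000031075) chr7:144588549-144751974 and Atp1b1 (ENSMUSG00000026576) chr1:164437109-164458355, the first on the plus and the others on the minus strand. Exons make up 3.82% (Ano1) to 17.0% (Scnn1a) of these spans, which matters because the deposited values are per kilobase of span. The span of Scnn1b shares 39152 bases with Cog7 on the opposite strand, without overlap of their exons, and an exon of Atp1b1 overlaps one of Nme7, also on the opposite strand. Use of strand in the counting was not stated, so reads of these partners cannot be told apart from those of Scnn1b and Atp1b1. Antisense genes without a row in the table used here also overlap Cftr (Gm15592, over 18913 bases and an exon), Nedd4l (A330084C13Rik and AC102333.1) and Ano1 (Gm44930), and the pseudogene Gm15595 lies within Cftr on its strand. Their reads could be part of the 54 to 219 reads of Cftr, which was not tested.

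The 250 bases before the start sites of the neighbours Scnn1b and Scnn1g are shown because these genes changed in opposite directions, and those of Cftr because it was the other gene called higher. They are RefSeq promoters of GRCm38.p6 on the plus strand, chr7:121864788-121865037 for Scnn1b, chr7:121734229-121734478 for Scnn1g and chr6:18170437-18170686 for Cftr. Capitals mark matches on either strand to GGGCGG, the GC box bound by SP1, where overlapping matches in Cftr run together.
Scnn1b: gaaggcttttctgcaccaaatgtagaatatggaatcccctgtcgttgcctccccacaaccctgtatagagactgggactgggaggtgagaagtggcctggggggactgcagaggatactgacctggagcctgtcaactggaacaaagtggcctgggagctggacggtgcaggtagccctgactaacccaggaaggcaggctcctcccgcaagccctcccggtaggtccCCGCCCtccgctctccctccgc
Scnn1g: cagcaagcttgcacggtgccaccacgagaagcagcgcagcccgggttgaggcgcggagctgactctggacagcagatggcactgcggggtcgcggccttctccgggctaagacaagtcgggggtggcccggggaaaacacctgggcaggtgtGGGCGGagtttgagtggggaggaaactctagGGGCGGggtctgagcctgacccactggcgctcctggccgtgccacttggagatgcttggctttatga
Cftr: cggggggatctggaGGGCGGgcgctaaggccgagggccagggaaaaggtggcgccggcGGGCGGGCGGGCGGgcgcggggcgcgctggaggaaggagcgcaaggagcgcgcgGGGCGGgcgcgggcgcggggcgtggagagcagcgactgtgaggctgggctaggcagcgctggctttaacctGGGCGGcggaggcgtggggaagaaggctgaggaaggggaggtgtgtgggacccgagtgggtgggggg
The GC box was found 1 time before Scnn1b, 2 times before Scnn1g and 6 times before Cftr, and 32.7% of 32851 promoters of the same length hold at least 1. The window of Cftr held 30 CpG dinucleotides, that of Scnn1g 16 and that of Scnn1b 7, against a median of 6 over all promoters. The letters AGAACA on either strand are a core hexamer of glucocorticoid receptor sites, and 16.1% of all promoters hold them. They were found 0 times in these 3 windows, and so were TATAAA (12.4% of promoters) and the forkhead letters TGTTTAC (3.17%). The NK2 homeobox letters CAAGTG, which 11.6% hold, were found 1 time before Scnn1g and 0 times before Scnn1b and Cftr. These are matches of letters in 250 bases and say nothing about binding. Promoter entries were matched for 5 of the 8 genes (Scnn1b, Scnn1g, Cftr, Atp1b1 and Ano1).

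The libraries held 39.7 to 48.7 M reads or fragments at room temperature and 32.7 to 35.1 M in cold (M for mega), as recovered from the steps between low deposited values. Values below are scaled RPKM, the deposited reads per kilobase of gene span and per M reads divided by a composition factor per library (0.857 to 1.13). Room temperature replicate 3 stood apart from its group: on the first principal component, which held 90.2% of the variance, it lay at −44.0, the other room temperature libraries at −81.3 and −94.2 and the cold libraries at 69.3 to 77.9. Changes are limma log2 differences of scaled reads per M reads (RPM) plus 0.5, cold minus room temperature, with Benjamini-Hochberg adjusted p over all 15238 genes tested and a threshold of 0.05. Of all genes tested 70.5% were called, 35.5% higher and 35.0% lower in cold, and for 76.2% the groups of 3 did not overlap, so a call by itself sets no gene apart here. Under the deposited scaling, by library totals alone, 46.2% were called higher and 24.7% lower, so that 65.1% of the calls were higher in place of 50.3%, and the median change of all genes moved from 0.0029 to 0.29. In bulk lung tissue fewer cells of a type and less RNA per cell cannot be told apart.

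Transcripts of the channels and transporters moved in both directions in cold. Of the 8 genes 5 were called lower (Scnn1a, Scnn1b, Atp1b1, Slc12a2 and Ano1), 2 were called higher (Scnn1g and Cftr) and Nedd4l was not called, against the 35.0% and 35.5% of all genes. The groups did not overlap for 7 of the 8, all but Cftr, against 76.2% of all genes. Their median change was −0.66, beside 0.0029 over all genes tested, and the median size of change was 0.84 beside 0.69. By size, Scnn1a and Slc12a2 exceeded 78.2% and 74.3% of all genes, Cftr, Atp1b1 and Ano1 56.4% to 65.3%, and Scnn1b, Scnn1g and Nedd4l 15.6% to 39.5%.

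**Figure D1:**
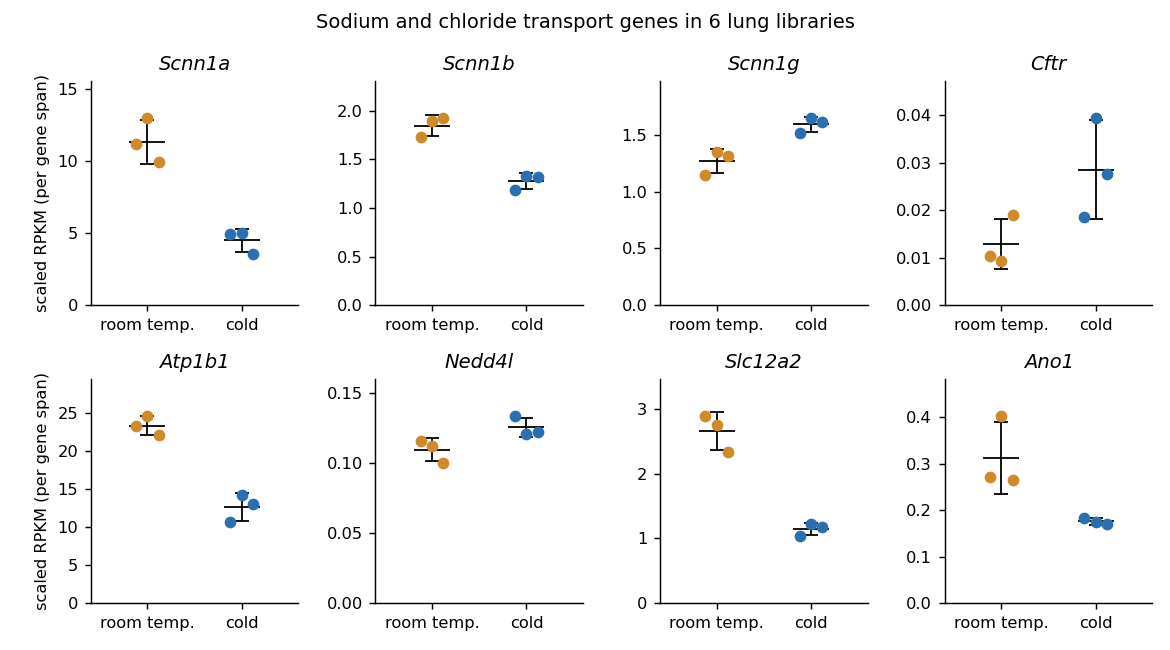
Scaled RPKM per gene span (vertical axes, each from 0) of the 8 transport genes in 3 room temperature (orange) and 3 cold libraries (blue); points are libraries, and the long dash and bar are mean ± SD. The groups separate for every gene but Cftr, where room temperature replicate 3 (0.0189) lies just above cold replicate 1 (0.0187).

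The alpha subunit of ENaC fell most. Scnn1a, which the channel needs to conduct, stood at 11.2, 12.9 and 9.88 scaled RPKM in room temperature replicates 1 to 3 and at 4.92, 4.98 and 3.57 in cold replicates 1 to 3. Every cold library was below every room temperature library, and the mean went from 11.3 ± 1.53 to 4.49 ± 0.797 (SD, n = 3 per group here and below), a log2 change of −1.34 ± 0.16 (SE; adjusted p = 0.000257). This is the largest change among the 8 genes, and it rests on 3397 to 13114 reads per library.

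Scnn1b, the beta subunit, fell less. It stood at 1.72, 1.89 and 1.92 at room temperature and at 1.19, 1.33 and 1.32 in cold, with no overlap (log2 change −0.53 ± 0.09 SE, adjusted p = 0.00168). Under the deposited scaling its change was −0.20 with an adjusted p of 0.124, so this call depends on the scaling. Cog7, a subunit of a Golgi tethering complex that shares part of its span, stood at 0.253 ± 0.0291 and 0.138 ± 0.0169 scaled RPKM (log2 change −0.85, adjusted p = 0.000753). The part of these reads in the value of Scnn1b was not tested.

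Scnn1g, the gamma subunit and neighbour of Scnn1b, was higher in cold. Its values were 1.15, 1.35 and 1.31 at room temperature and 1.52, 1.65 and 1.62 in cold. All cold libraries were above all room temperature libraries, by a small margin (log2 change 0.33 ± 0.10 SE, 95% interval 0.10 to 0.55, adjusted p = 0.0188). The call was lost without room temperature replicate 1 (log2 change 0.24, adjusted p = 0.111) and without cold replicate 2 (0.30, adjusted p = 0.065), and the change was 0.65 under the deposited scaling.

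The balance of the ENaC subunits differed between the groups. Ratios of reads within a library are free of the scaling, while the log2 ratios tested here and below carry the added 0.5 RPM, which matters for the low values of Cftr. Per read of Scnn1b there were 0.423, 0.453 and 0.435 reads of Scnn1g at room temperature and 0.812, 0.786 and 0.779 in cold. The log2 ratio of Scnn1g to Scnn1b rose by 0.85 between groups whose SDs were 0.049 and 0.031. Reads of Scnn1g per read of Scnn1a went from 0.144, 0.146 and 0.186 to 0.432, 0.463 and 0.634, a log2 difference of 1.66. Reads of Scnn1b per read of Scnn1a went from 0.340, 0.322 and 0.428 to 0.532, 0.589 and 0.814, a difference of 0.81. None of these 3 ratios overlapped between groups, but ratios of all genes to Scnn1a did not overlap for 87.5% and those to Scnn1b for 74.9%. Each had p = 0.10 by an exact two-sided permutation test, the smallest that 20 splits of 3 against 3 allow, or 0.11 adjusted over the 24 ratios computed. The ratio of Atp1b1 to Scnn1a overlapped between groups (log2 difference 0.45, exact permutation p = 0.20). Per kilobase of exon, Scnn1a made up 56.0% ± 3.65 of the summed level of the 3 subunits at room temperature and 37.3% ± 4.94 in cold, Scnn1b 31.8% ± 2.72 and 37.0% ± 3.19, and Scnn1g 12.2% ± 0.988 and 25.8% ± 1.77. Whether intronic reads were counted was not stated, and shares per exon kilobase hold only if they were not. Per kilobase of span, Scnn1a made up 78.3% ± 2.55 and 60.7% ± 5.11, Scnn1b 12.9% ± 1.55 and 17.5% ± 2.45, and Scnn1g 8.85% ± 1.02 and 21.8% ± 2.66, so the sizes of the shares depend on the length used, while Scnn1a was lower and Scnn1g higher in cold by either.

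**Figure D2:**
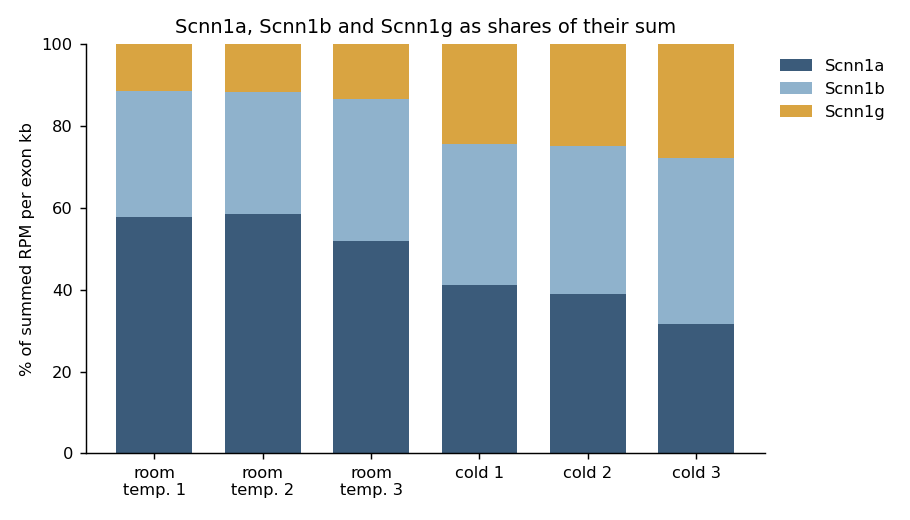
Stacked bars give each ENaC subunit gene as a percentage of the summed RPM per exon kilobase of Scnn1a (dark blue), Scnn1b (light blue) and Scnn1g (yellow) in each of the 6 libraries. Scnn1g takes 12.2% on average at room temperature and 25.8% in cold, and Scnn1a 56.0% and 37.3%.

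Atp1b1, the pump subunit that folds and delivers the catalytic subunit to the membrane, was lower in cold. It stood at 23.3, 24.6 and 22.0 scaled RPKM at room temperature and at 10.7, 14.2 and 13.0 in cold. The groups were far apart, at 23.3 ± 1.27 and 12.6 ± 1.81 (log2 change −0.89 ± 0.13 SE, adjusted p = 0.000565). Nme7, which shares an exon position on the other strand, stood at 0.622 ± 0.084 and 0.361 ± 0.0377.

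Of the chloride genes, the basolateral cotransporter fell most. Slc12a2 (ENSMUSG00000024597, chr18:57878678-57946821, plus strand) stood at 2.89, 2.76 and 2.34 scaled RPKM at room temperature and at 1.03, 1.22 and 1.18 in cold. No library of one group came near the other, and the log2 change was −1.21 ± 0.12 SE (adjusted p = 0.000107).

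Ano1, the calcium-gated chloride channel that secretory epithelium and smooth muscle express, stood at 0.272, 0.403 and 0.264 at room temperature and at 0.183, 0.175 and 0.169 in cold. Room temperature replicate 2 was the high library, and the 3 cold libraries were close together (log2 change −0.79 ± 0.16 SE, adjusted p = 0.00324). Smooth muscle markers were also lower in cold: 0 of 12 tested were called higher and 10 lower, beside 35.0% of all genes called lower. Their summed level was 2830 to 3549 RPM at room temperature and 607 to 934 RPM in cold. Their mean log2 level, centred over the 6 libraries, was 1.19, 0.77 and 0.97 in room temperature replicates 1 to 3. It was thus lowest in replicate 2, where Ano1 was highest. In cold it was −0.71, −1.38 and −0.83. The same mean of club and secretory cell markers was 1.57, 1.72 and 1.14 at room temperature. The part of smooth muscle or of secretory cells in the change of Ano1 was not tested.

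Cftr had the lowest level of the 8 and the change with the widest error. Its deposited values, to 3 decimals, were 0.009, 0.008 and 0.018 RPKM at room temperature and 0.021, 0.044 and 0.031 in cold, which correspond to 54 to 219 reads per library. Rounding alone leaves up to 6.25% and counting up to 13.6% of error in a value. After scaling the values were 0.0103, 0.0093 and 0.0189 against 0.0187, 0.0394 and 0.0277, so room temperature replicate 3 and cold replicate 1 were nearly equal and the groups overlapped. The log2 change was 0.98 ± 0.31 SE, with a 95% interval of 0.26 to 1.70 and an adjusted p of 0.0225. The call was lost without room temperature replicate 1 (change 0.86, adjusted p = 0.0785) or 2 (0.82, adjusted p = 0.0596) and without cold replicate 2 (0.74, adjusted p = 0.0808) or 3 (0.97, adjusted p = 0.0694). The log2 ratios of Slc12a2 and of Ano1 to Cftr fell by 2.19 and 1.77, or fell by 2.38 and 1.97 with no constant added, without overlap (exact permutation p = 0.10 for both, the smallest possible). Ratios of all genes to Cftr did not overlap for 55.6%.

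Nedd4l (ENSMUSG00000024589, chr18:64887705-65217828, plus strand), the ligase that limits ENaC at the membrane, stood at 0.116, 0.112 and 0.10 scaled RPKM at room temperature and at 0.133, 0.121 and 0.122 in cold. The cold libraries were all above the others, but the difference was small and did not pass the test (log2 change 0.20 ± 0.10 SE, 95% interval −0.03 to 0.43, adjusted p = 0.106). Under the deposited scaling it was 0.52 with an adjusted p of 0.00158, which passes. Reads of Nedd4l per read of Scnn1a went from 0.141, 0.118 and 0.138 to 0.369, 0.330 and 0.464 (log2 difference 1.54, exact permutation p = 0.10, the smallest possible), beside the 87.5% of genes whose ratio to Scnn1a did not overlap.

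**Figure D3:**
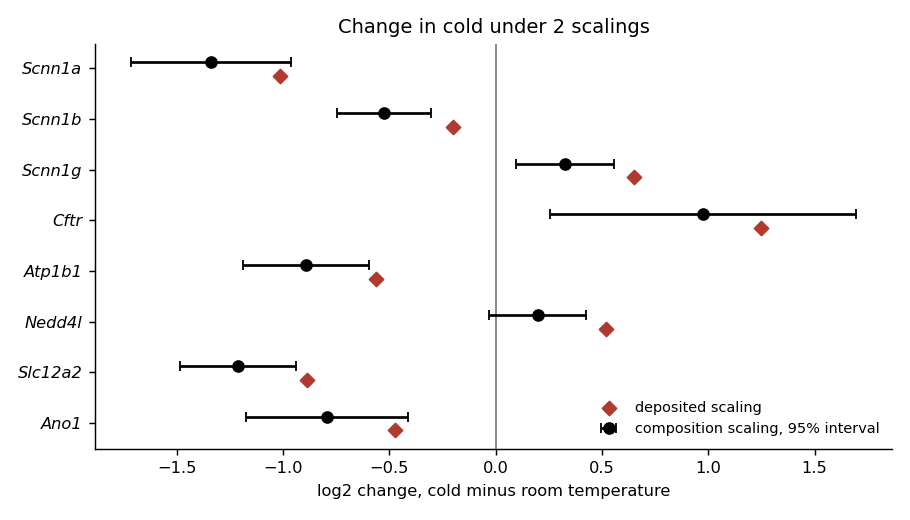
Log2 change, cold minus room temperature (horizontal axis), of the 8 genes: black points are limma estimates after composition scaling with 95% intervals, and red diamonds are estimates under the deposited scaling. The deposited scaling moves every gene to the right, and the interval of Nedd4l (−0.03 to 0.43) crosses 0.

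Room temperature replicate 3 did not decide these calls. Without it Scnn1a changed by −1.45, Scnn1b by −0.52, Scnn1g by 0.33, Cftr by 1.22, Atp1b1 by −0.95, Nedd4l by 0.12, Slc12a2 by −1.32 and Ano1 by −0.92, and the same 7 genes were called. Of the 8 genes, 0 had a q value in the authors' deposited table under 0.05, against 24.7% of its 18174 genes. The lowest q values there were 0.0546 for Scnn1a and 0.0837 for Slc12a2, and the authors' deposited table gives log2 fold changes of −1.0, −0.21 and 0.65 for Scnn1a, Scnn1b and Scnn1g on library totals.

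Levels were compared between genes per kilobase of merged exons, which presumes that intronic reads were not counted, and this was not stated. Spans are 5.9 (Scnn1a) to 26.2 (Ano1) times as long as the exons. At room temperature the order was Atp1b1 (161 ± 8.79 RPM per exon kilobase), Scnn1a (66.5 ± 9.01), Scnn1b (37.5 ± 2.16), Slc12a2 (16.6 ± 1.80), Scnn1g (14.4 ± 1.23), Ano1 (8.19 ± 2.03), Nedd4l (2.04 ± 0.153) and Cftr (0.252 ± 0.104). The ranges of Slc12a2 and Scnn1g overlapped, and all other neighbours were apart. In cold Atp1b1 still led (87.1 ± 12.5), Scnn1a (26.4 ± 4.68) and Scnn1b (26.0 ± 1.61) overlapped, and Scnn1g (18.1 ± 0.764) lay above Slc12a2 (7.12 ± 0.615). Ano1 (4.60 ± 0.183), Nedd4l (2.34 ± 0.131) and Cftr (0.560 ± 0.203) kept the lowest ranks. Per kilobase of span, 6 of the 8 genes had the same rank in each group as per kilobase of exon.

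Other genes of salt transport, in 7 lists by role, also split. Of 133 tested genes beyond the 8, 47 were called higher, 55 lower and 31 were not called, beside 35.5% and 35.0% of all genes, and their median log2 change was −0.01. Under the deposited scaling 58 were higher and 38 lower (median 0.26). The shares called are near those of all genes.

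Of 24 tested regulators of ENaC, Nedd4l aside, 14 were called lower and 7 higher, beside 35.0% and 35.5% of all genes. Their median log2 change was −0.47, while the list with Nedd4l had 9 lower and 9 higher under the deposited scaling. Sgk1, the steroid-induced kinase that phosphorylates NEDD4-2 and so keeps ENaC at the membrane, stood at 0.228, 0.281 and 0.363 scaled RPKM at room temperature and at 0.812, 1.03 and 1.08 in cold. It rose in every cold library (log2 change 1.75 ± 0.19 SE, adjusted p = 0.000163), opposite to Scnn1a. The mineralocorticoid receptor gene Nr3c2 fell from 0.0552 ± 0.0027 to 0.0274 ± 0.00136. Named after their values were seen, the glucocorticoid receptor gene Nr3c1 (log2 change 1.42), Tsc22d3 (2.53), Hsd11b1 (3.96), Hsd11b2 (0.80) and Sgk3 (1.30) were called higher. The deubiquitinase gene Usp2 fell from 2.12 ± 0.329 to 0.610 ± 0.109. Of the proteases that activate ENaC and their inhibitors, St14, which encodes matriptase, fell from 2.82 ± 0.624 to 0.572 ± 0.10 and the Kunitz inhibitor gene Spint2 from 23.8 ± 5.01 to 4.06 ± 0.899. Among the degenerin relatives of ENaC only Asic1, an acid-sensing channel, passed the filter on low values besides the 3 subunits, and it fell from 0.106 ± 0.014 to 0.0655 ± 0.00322 (adjusted p = 0.0141).

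Of 12 tested Na,K-ATPase and FXYD genes besides Atp1b1, 4 were called higher and 4 lower (median 0.34), beside 35.5% and 35.0% of all genes. Under the deposited scaling the list with Atp1b1 had 7 higher and 3 lower, beside 46.2% and 24.7% of all genes. Fxyd3, a pump regulator of epithelium, fell from 3.06 ± 0.820 to 0.505 ± 0.107 scaled RPKM, and Fxyd5, known as dysadherin, rose from 0.541 ± 0.206 to 2.51 ± 0.381. The SLC12 family and the kinases that switch it gave 6 higher and 7 lower of 16 besides Slc12a2 (median −0.10). Of all genes 35.5% were called higher and 35.0% lower. With Slc12a2 the median was −0.19, and it turned to 0.10 under the deposited scaling. Stk39, the gene of SPAK, which phosphorylates and activates NKCC1, fell from 0.0417 ± 0.00193 to 0.0155 ± 0.000454 (log2 change −1.33, adjusted p = 7.83e-05), with Slc12a2. Wnk2 fell from 0.0517 ± 0.00801 to 0.00774 ± 0.000999 and Cab39l, a partner of these kinases, from 0.487 ± 0.0643 to 0.170 ± 0.0207.

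The anion channels and exchangers other than Cftr and Ano1 had 16 higher and 11 lower of 40 tested (median 0.15). The shares over all genes were 35.5% and 35.0%. Slc26a9, an apical chloride transporter of airway and alveolar epithelium, stood at 0.190, 0.245 and 0.288 scaled RPKM at room temperature and at 1.08, 1.17 and 1.12 in cold (log2 change 2.15 ± 0.15 SE, adjusted p = 5.28e-05). Slc26a6, an anion exchanger, rose from 0.0230 ± 0.00287 to 0.0869 ± 0.00961, Lrrc8a, the essential subunit of volume-regulated anion channels, from 0.542 ± 0.104 to 1.81 ± 0.225, and Slc4a1, the anion exchanger of red cells, from 0.00872 ± 0.00614 to 0.170 ± 0.0413. Proteins known to scaffold, traffic or gate CFTR gave 12 higher and 11 lower of 25 (median 0.26), beside 35.5% and 35.0% of all genes. The scaffold gene Slc9a3r1 (NHERF1) fell from 9.43 ± 1.96 to 1.67 ± 0.347, the linker gene Ezr (ezrin) from 10.5 ± 1.13 to 3.23 ± 0.60, the protein kinase A subunit gene Prkar2b from 0.650 ± 0.109 to 0.137 ± 0.00674 and the receptor gene Vipr1 from 0.603 ± 0.114 to 0.119 ± 0.025, while Cftr did not fall.

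**Figure D4:**
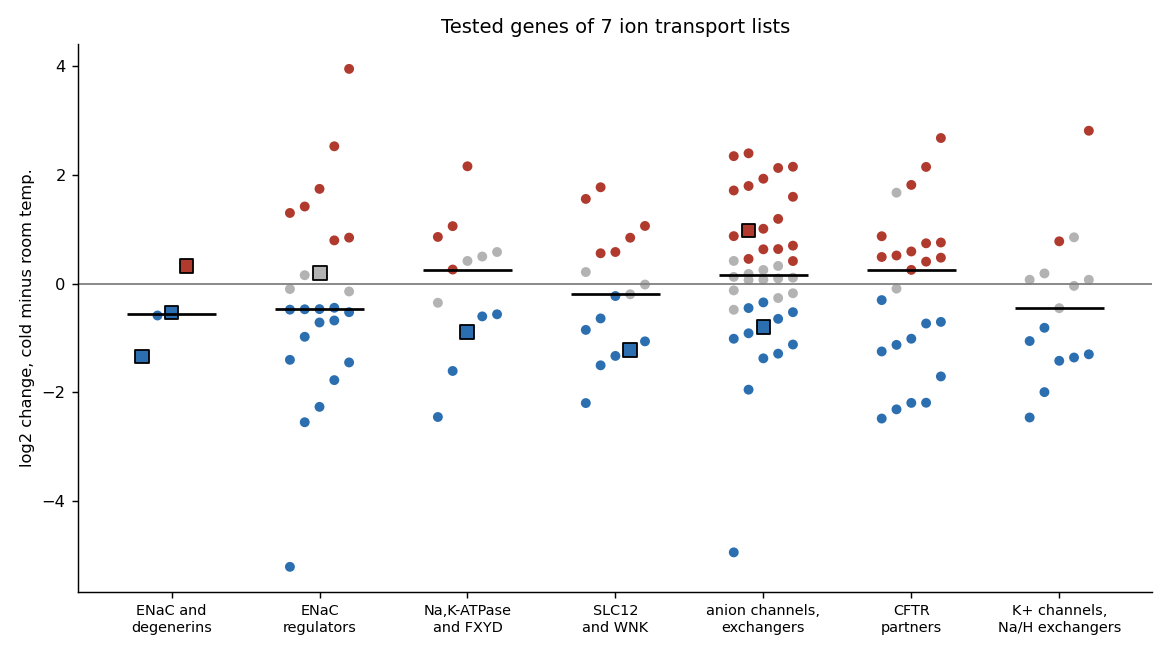
Log2 change, cold minus room temperature, of each tested gene in 7 ion transport lists; red points were called higher, blue lower and grey not called, squares with a black edge are the 8 described genes, and the black line is the list's median. Both directions occur in every list, with medians from −0.55 to 0.26.

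Markers of several lung cell types changed with a median size above 2 on the log2 scale. This was 0.84 for the 8 genes and 0.69 for all genes tested. Markers counted as fallen or risen are those called, beside 35.0% of all genes called lower and 35.5% higher. Epcam and Cdh1, adhesion genes of all epithelium, fell from 8.0 ± 1.31 to 1.94 ± 0.104 and from 7.18 ± 0.696 to 2.32 ± 0.349 scaled RPKM, and of 15 epithelial markers 13 fell and 2 rose. Club cell markers fell in 14 of 15 cases and rose in 0, from summed levels of 90960 to 121747 RPM to 22044 to 25452 RPM. Ciliated cell markers fell in 16 of 16 (2178 to 3315 against 553 to 721 RPM). Basal cell markers fell in 7 of 9, with 2 higher (224 to 458 against 207 to 230 RPM) and a median log2 change of −3.68. The basal sum includes the 2 higher markers, Icam1 (2.15 ± 1.09 to 12.4 ± 1.61 scaled RPKM) and Itga6 (0.229 ± 0.0682 to 0.463 ± 0.101). Alveolar type 1 markers rose in 11 of 13 with 1 lower (754 to 1322 against 4023 to 4263 RPM), alveolar type 2 markers in 12 of 15 with 0 lower (4782 to 7712 against 13482 to 19051 RPM) and endothelial markers in 18 of 18 (124 to 800 against 3732 to 4258 RPM). Submucosal gland markers fell in 5 of 7 with 1 higher (1652 to 3577 against 273 to 420.1 RPM) and cardiac muscle markers in 9 of 12 with 0 higher (511.9 to 1868 against 191 to 349 RPM), while neutrophil markers rose in 10 of 11 with 0 lower (25.8 to 43.1 against 142 to 269.7 RPM). None (0) of the markers in these lists was listed at 0 in all libraries. The part of cell make-up in the changes of the 8 genes was not tested.

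Set against Epcam, all 8 genes were higher in cold without overlap, as were 92.3% of all genes, and against Cdh1 7 of the 8, as were 86.3%. Scnn1a was the exception, with 0.515, 0.650 and 0.555 reads per read of Cdh1 at room temperature and 0.895, 0.672 and 0.567 in cold (log2 difference 0.29, exact permutation p = 0.20). Per read of Epcam, the log2 differences ran from 0.67 for Scnn1a to 2.99 for Cftr (3.19 with no constant added). The counts are near those of all genes and set these 8 apart from none of them.

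Pulmonary ionocytes, rare airway cells that carry much of the airway's Cftr, could be followed only in part. Foxi1, their defining transcription factor, stood at 0.0309 and 0.0315 scaled RPKM in room temperature replicates 1 and 2 and was listed at 0 in replicate 3 and in the 3 cold libraries, too low to test. Of 16 ionocyte markers 11 were tested, of which 3 were called higher and 3 lower, beside 35.5% and 35.0% of all genes. The summed levels of the 16 were 116 to 158 RPM at room temperature and 75.8 to 92.6 RPM in cold. Ascl3, another of their factors, stood at 0.249, 0.236 and 0.208 against 0.172, 0.0707 and 0.149 (adjusted p = 0.0537). Some of these markers, such as Pparg and Atp6v1b1, are also expressed by other lung cells, and the source of the Cftr reads was not tested.

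**Figure D5:**
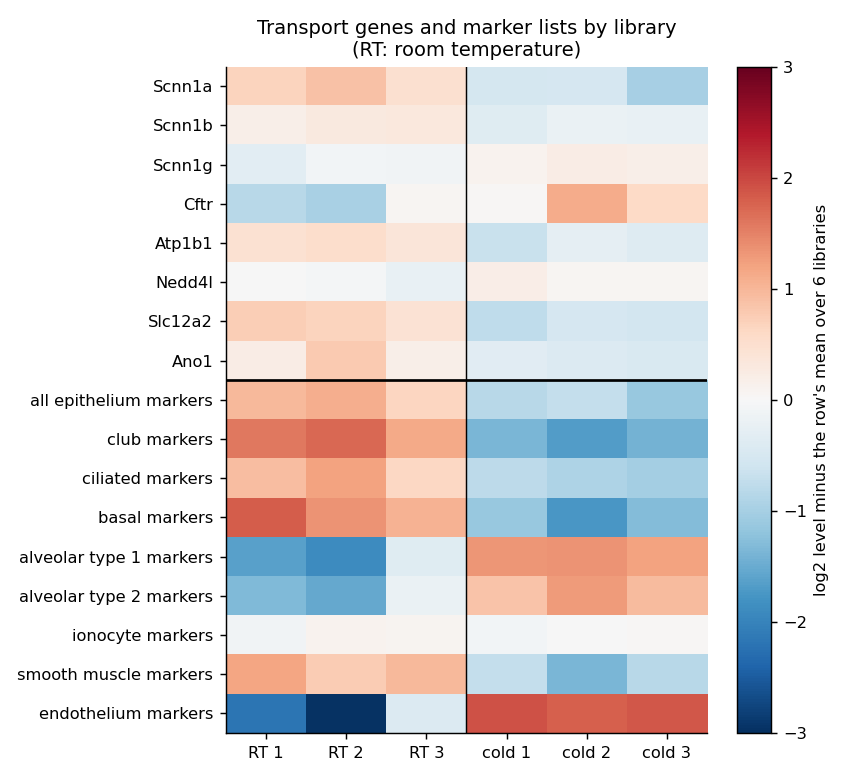
Colour gives the log2 level minus the row's mean over the 6 libraries (columns; RT, room temperature) for the 8 genes (log2 scaled RPKM, above the line) and for the mean of each marker list (log2 of scaled RPM plus 0.5, below it). Scnn1a, Scnn1b, Atp1b1, Slc12a2 and Ano1 share the direction of the epithelial, club, ciliated, basal and smooth muscle rows (red at room temperature, blue in cold). The depth of colour differs, and Scnn1b is paler than each of these rows. Room temperature replicate 3 is the palest room temperature library in the epithelial, club, ciliated, basal, alveolar and endothelial rows.

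Genes whose profiles over the 6 libraries were most like those of the transport genes were found by the root mean square distance of centred log2 values among 12534 candidates. They were Gga1 and Hint2 for Scnn1a (distances 0.040 and 0.046 on the log2 scale), Nup50 and Mrpl18 for Scnn1b, Rdh13 and Pnpt1 for Scnn1g, Sdhd and Pygl for Atp1b1, Mrpl17 and Spata13 for Slc12a2, and Zfr2 and Slc5a10 for Ano1. Nedd4l was nearest to Zfp784 and Cog1. For Cftr the nearest, Ppm1j and Lair1, lay at 0.10 and 0.14, farther than for any of the other genes. No transport gene of the 8 was among the 2 nearest of another, which with 12534 candidates says little about whether their profiles are alike.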

How the data were processed

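Lung RNA of 6 libraries was sequenced; per the labels' protocols, total RNA went into libraries of the NEBNext Ultra II kit, and the submitters' processing notes name build mm10. Aligner, counter and annotation were not stated. The deposited table gives RPKM values rounded to 3 decimals. For all 18174 genes the deposited log2 fold change equals the log2 ratio of group means, each with 0.001 added. The test behind the deposited q value was not stated.

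RPKM times gene span in GENCODE M21 fell on whole multiples of 1 step per library (phase coherence 0.799 to 0.852, where 1 is exact; at most 0.171 with exon length), which gave the depth. Of recovered read numbers up to 20 in genes under 5 kb, 82.2% to 86.9% were whole within 0.1. RPM is RPKM times span in kilobases. limma 3.58.1 in R 4.3.3 (lmFit; eBayes with trend and robust) was fitted to log2 of RPM plus 0.5, scaled by trimmed mean of M values without weights (trimming 30% of ratios and 5% of averages on each side), for genes with the equivalent of 10 reads in at least 3 libraries and 15 in all. The 92 rows without a span were left out.

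The members, lists and tests were chosen with earlier results of these data known. Named are the 8 genes, up to 4 called genes of smallest p per transport list, Sgk1, Slc26a9, Foxi1, Epcam and Cdh1, and the nearest profiles; some results under this rule are not reported here. Across genes, deviations from the group means correlated at 0.115, 0.149 and 0.155 for libraries with the same number and at −0.206 to 0.064 for the others. Deviations within a group are tied to each other, so these correlations are not independent and do not show pairing. The replicate numbers were treated as pairs only in an alternative fit with a replicate block. Chi-square per degree of freedom between reads of libraries in a group was 15.7 to 87.3, so no libraries were duplicates.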

Additional observations from a re-analysis of the deposited data

How the results depend on the processing

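Each of the 8 log2 changes was recomputed under 16 alternatives, and in 128 of 128 cases the direction held and in 120 the side of the threshold. Under the deposited scaling Scnn1b changed by −0.20 (not called) and Nedd4l by 0.52 (called). With the replicate number as a block (paired fit) no call among the 8 changed, with Scnn1g at 0.33 (adjusted p = 0.0179), Cftr at 0.98 (0.0233) and Nedd4l at 0.20 (0.0983). Leaving out 1 library at a time gave 0.24 to 0.36 for Scnn1g and 0.74 to 1.22 for Cftr, and 0 to 2 of the 8 called higher in place of 2, with 5 called lower throughout. Over all genes 4522 to 5466 were then called higher and 4615 to 5339 lower. Counts in the lists moved by over 1.5 times under the deposited scaling for the ENaC subunits and degenerins (lower, 3 to 1), ENaC regulators (lower, 14 to 9), the Na,K-ATPase list (higher, 4 to 7, and lower, 5 to 3), anion channels (lower, 12 to 7) and potassium channels and sodium-proton exchangers (higher, 2 to 4). Without 1 library the ENaC list had 0 to 1 higher and the Na,K-ATPase list 2 to 6 (2 without any of the 3 cold libraries). The cause of these shifts was not tested. Depth limits Cftr, whose lowest library held 54 reads, and Foxi1. Chosen after seeing the data, log2 ratios with no constant added kept the sign and the overlap or separation of all 24 pairs.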

Other observations

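Potassium channels and sodium-proton exchangers set the driving force for chloride and the acid load of epithelium. Of 15 tested, 2 were called higher and 7 lower, beside 35.5% and 35.0% of all genes. Their median log2 change was −0.45, beside 0.0029 over all genes. Under the deposited scaling 4 were called higher and 6 lower, beside 46.2% and 24.7% of all genes. Kcne2 and Kcne3, accessory subunits of the potassium channel encoded by Kcnq1, went in opposite directions. Kcne2 stood at 0.170, 0.167 and 0.278 scaled RPKM at room temperature and at 2.07, 1.77 and 2.00 in cold (limma log2 change 2.82 ± 0.19 SE, adjusted p = 5.15e-05). Kcne3 fell from 1.04 ± 0.078 to 0.139 ± 0.0116 and Kcnq1 itself from 0.0633 ± 0.00858 to 0.0247 ± 0.00136 (mean ± SD, n = 3). The sodium-proton exchanger gene Slc9a2 fell from 0.0781 ± 0.0157 to 0.0152 ± 0.00152.

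Chosen after their values were seen, the volume-regulated channel subunits Lrrc8b and Lrrc8c were also called higher (log2 changes 1.01 and 2.35), while Lrrc8e was called lower (−1.29) and Lrrc8d had a change of 0.11 (adjusted p = 0.476).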
